A study of Mus musculus with 24 samples.

Results

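Livers of obese mice given an LNA against Mafg were compared with livers of obese mice given a scrambled LNA, feature by feature. All 69905 assembled features of the table for this pair of groups were taken, and 61548 of them carry an Ensembl gene (49007 genes). An LNA gapmer is a short locked-nucleic-acid oligonucleotide that pairs with an RNA and lets RNase H cut it. Both groups were wild-type C57BL/6 males (sex and the substrain C57BL/6N are from the study's methods), labelled as 18 weeks old with 12 weeks of LNA, on a high-fat diet (HFD) of 54 kJ% fat, 22 kJ% carbohydrate and 24 kJ% protein. Their labels differ in the oligonucleotide, Mafg LNA or Scr LNA, with 4 livers in each of these groups out of 24 livers in 6 groups. Levels are also cited from Scr LNA NCD and LincIRS2 LNA NCD, each of 4 livers with the same labelled age and weeks of LNA. Their control diet (NCD) held 11 kJ% fat, 62 kJ% carbohydrate and 27 kJ% protein. LincIRS2 is a lncRNA that the study named and silenced. The study's methods give a higher age and a longer treatment than the labels, and state that saline or insulin was injected at the end, which the labels do not assign to single livers. The LNA was given i.v. and the RNA came from whole liver, so the treatment and the values are not specific to hepatocytes.

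Each group is 1 value of FPKM (fragments scaled to transcript length and to library size), which the authors' Cuffdiff run made from the 4 livers together. The spread between livers and the depth are therefore unknown, no test was possible, and every difference below describes these pooled values. In bulk liver, fewer cells of a type and less RNA per cell cannot be told apart.

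MAFG is a small MAF transcription factor. It binds DNA as a dimer, has no activation domain of its own, and acts with cap'n'collar partners such as NRF2 at antioxidant response elements, while MAF homodimers repress. In mouse liver it is known as a repressor of bile acid synthesis genes downstream of the nuclear receptor FXR. The comparison asks which liver transcripts stood at another level when Mafg was silenced in obesity.

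The oligonucleotides are shown because their match to Mafg defines the treatment. Both are given 5′ to 3′ as the study lists them, together with the site the Mafg LNA pairs with and the only other near match, in which the capital letter marks the mismatched base.
Mafg LNA: gtcttggactttacta
Scr LNA: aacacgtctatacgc
Mafg site: tagtaaagtccaagac
Dubr site: tagtaaagtccaaCac
The complement of the 16-base Mafg LNA was found exactly in 4 transcripts of 141767 in GENCODE M21 (GRCm38), all of them Mafg, at chr11:120629300-120629315 on the minus strand, in the coding part of the last exon. With 1 mismatch allowed it was found in 1 further transcript, of the lincRNA Dubr, at chr16:50731961-50731976 on the minus strand (G14C, the Mafg base first, counted from the 5′ end of the site). Dubr was listed at 0.522 FPKM with Scr LNA and 0.735 FPKM with Mafg LNA. The complement of the 15-base Scr LNA had no match with up to 1 mismatch. Only spliced transcripts were searched.

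Mafg itself could not be read, so the knockdown was not checked here. The gene (chr11:120625117-120633600, minus strand) lies inside an assembled locus at chr11:120608477-120633641 whose 3 features were assigned to its neighbours Npb, Pcyt2 and Sirt7. The partner gene Nfe2l2, which encodes NRF2, stood at 4.97 FPKM with Scr LNA and 4.37 FPKM with Mafg LNA. Mafk, a paralogue of Mafg, was near 0 in both groups, in 1 transcript kept from a locus of 5.

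A feature was read where the higher group reached 1 FPKM, and each gene was read by its feature of highest mean. Log2 ratios are Mafg LNA over Scr LNA on FPKM + 0.1, which understates the change of low genes. Of 6883 genes read, 228 (3.31%) were at least 2-fold higher with Mafg LNA and 200 (2.91%) at least 2-fold lower, and the median log2 ratio was −0.07. Over single features the shares were 4.06% higher (370 of 9108) and 3.58% lower (326). The same rule gave 2.46% higher and 2.21% lower for HFD over control diet (NCD) under Scr LNA, and 1.41% higher and 1.67% lower for LincIRS2 LNA over Scr LNA on NCD. The diet comparison shares the Scr LNA HFD group with the one described here.

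**Figure D1:**
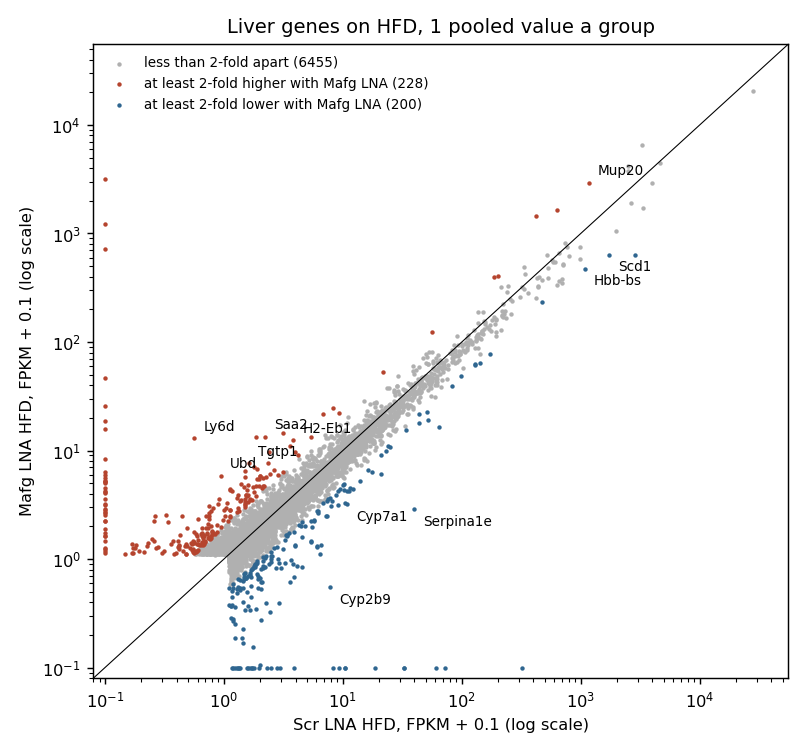
FPKM + 0.1 of the 6883 genes read, with Scr LNA on HFD on the x axis and Mafg LNA on HFD on the y axis, both on log scales, 1 point a gene and the line marking equal values. The 228 red genes and 200 blue genes are at least 2-fold apart, and those on the left and lower edges are at or near 0 in 1 group.

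The share of genes at least 2-fold apart differed by level and by kind of RNA. Of 345 genes at 30 FPKM or more, 3.19% were higher and 6.38% lower, against 3.46% and 2.77% of 3900 genes at 1 to 3 FPKM. The shares were larger for short RNAs, with 32.9% of 70 snoRNA genes higher and 15.7% lower, and features without a gene gave 16.7% and 13.5% (437 features). The table keeps 1 transcript of each assembled locus, so a value at a locus with several transcripts is that of 1 isoform. By the numbering of the transcripts, 61.5% of the genes read came from loci with 1 transcript, and these gave 3.55% higher and 2.84% lower. Among 1147 genes with exactly 2 features read, the features' log2 ratios differed by a median of 0.15, and of the 63 whose leading feature was at least 2-fold apart, 58 had the other feature on the same side.

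**Figure D2:**
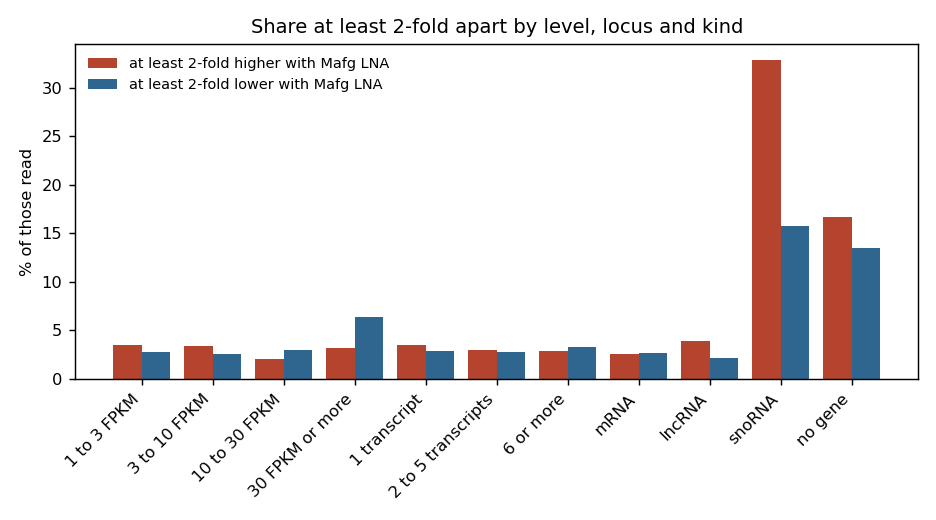
Share of those read (%, y axis) that was at least 2-fold higher (red) or lower (blue) with Mafg LNA, by level in the higher group, by transcripts at the locus and by kind of gene. The bars stay between 2.03% and 6.38% for the classes of level, locus, mRNA and lncRNA and reach 32.9% for snoRNA.

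The highest log2 ratio among protein-coding genes was that of Ly6d, a GPI-anchored surface protein of the Ly6 family (chr15:74762056-74763620). Its FPKM was 0.464 with Scr LNA and 12.9 with Mafg LNA, a log2 ratio of 4.53. Its second feature gave 0.505 and 11.2 FPKM, so both features of the gene stood on the same side. On NCD it was 0.315 FPKM with Scr LNA and 0.361 FPKM with LincIRS2 LNA, which leaves Mafg LNA HFD as the high group of the 4.

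Other genes among the 15 of highest ratio included steroid, immune and matrix genes. Akr1c18, a 20α-hydroxysteroid dehydrogenase, was at 0.165 FPKM with Scr LNA and 2.38 FPKM with Mafg LNA. Ubd, the ubiquitin-like protein FAT10 that cytokines induce, was at 0.840 and 5.77 FPKM (log2 ratio 2.64). Saa2, an acute-phase serum amyloid, was at 2.12 and 13.4 FPKM in the same order. The collagenase Mmp13 was at 0.127 and 1.21 FPKM. The sperm acrosome gene Eqtn was at 0.0922 and 1.08 FPKM. Ms4a4a, a macrophage membrane protein, was at 0.166 and 1.16 FPKM at a locus of 2 transcripts. Apart from Saa2, these genes and Ly6d reached 1 FPKM with Mafg LNA only. Other high ratios, of Pcnp, Larp4b, Ubr3, Naa35, Dek and Coro1b (log2 ratios from 2.44 to 3.03), came from 1 isoform at loci of 8 to 32 transcripts.

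The lowest log2 ratio among protein-coding genes was that of Fhit (−4.25), read in 1 isoform of a locus of 12 transcripts. Next stood Cyp2b9, a female-biased cytochrome P450 of the phenobarbital-inducible family (chr7:26173411-26210661). Its FPKM was 7.76 with Scr LNA and 0.447 with Mafg LNA, a log2 ratio of −3.84, and its second feature gave 4.59 and 0.302 FPKM. Serpina1e, an alpha-1-antitrypsin of male mouse liver (chr12:103946931-103958975), was at 39.5 and 2.77 FPKM. Serpina1 genes are near-identical copies, so reads may be split between them. Its neighbours Serpina1c (629 and 335 FPKM) and Serpina1b (336 and 492 FPKM) stood on opposite sides. Serpina1a was at 0.502 and 2.22 FPKM, in 1 isoform of a locus of 3 transcripts.

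Other low genes at loci with 1 transcript included Tcf24 (1.64 and 0.0546 FPKM), Hao2, Nipal1, Mup12, Lhfp, Erbb4 and Snhg11. Hao2, a peroxisomal hydroxyacid oxidase, was at 1.33 FPKM with Scr LNA and 0.0883 FPKM with Mafg LNA. The receptor tyrosine kinase Erbb4 was at 1.76 and 0.250 FPKM, and its second feature at 1.58 and 0.328 FPKM. Mup12 is one of a family of near-identical urinary protein genes and was at 6.36 and 1.01 FPKM. Fhit and also Taldo1, Park2, Krt23 and Amy1 (log2 ratios from −4.25 to −2.28) were single isoforms of loci with 2 to 16 transcripts.

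Genes that interferons induce were mostly higher with Mafg LNA. Interferons signal through STAT proteins and IRF9 to promoters that carry an interferon-stimulated response element. Of 22 interferon-response genes read out of a list of 43, 7 were at least 2-fold higher and 0 lower, 20 had a ratio above 0, and the median log2 ratio was 0.74 against −0.07 over all genes read. Of the 15 that reached 1 FPKM in both groups, 5 were at least 2-fold higher. Usp18, the protease that removes ISG15 from proteins, was at 1.21 FPKM with Scr LNA and 3.82 FPKM with Mafg LNA. The ubiquitin-like modifier Isg15 was at 1.42 and 3.81 FPKM. Ifit2, which binds viral RNA, was at 1.39 and 3.23 FPKM. All 3 had lower levels in both NCD groups than with Mafg LNA, between 1.33 and 2.06 FPKM. Cxcl10, a chemokine that draws T cells, was at 0.654 and 2.57 FPKM at a locus of 8 transcripts. Ifi44 was at 1.57 and 3.47 FPKM, and the RNA sensor Oas3 at 0.280 and 1.01 FPKM. Irf7 (1.30 and 1.23 FPKM) and Stat2 (43.1 and 35.7 FPKM) were the members below a ratio of 0.

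The interferon-inducible GTPases, which disrupt the vacuoles of intracellular pathogens, gave 4 of 8 genes at least 2-fold higher and 0 lower (median log2 ratio 1.01), and 3 of the 7 at 1 FPKM or more in both groups. Tgtp1 was at 1.53 FPKM with Scr LNA and 7.53 FPKM with Mafg LNA, and its second feature at 0.752 and 3.92 FPKM. Gbp3 was at 1.87 and 4.64 FPKM, and Gbp11 at 1.46 and 3.70 FPKM. Tgtp1 and Tgtp2 are close copies, so reads may be split between them.

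Promoters of 2 of these genes are shown, whose transcripts were both higher. Both promoters were taken from those that hold the letters described below. They are RefSeq windows on GRCm38.p6, running from 250 bases before the start site to 50 after it on the gene's strand, and the capitals mark matches to the letters of the interferon-stimulated response element, GAAANNGAAA.
Isg15, chr4:156200769-156201068, minus strand: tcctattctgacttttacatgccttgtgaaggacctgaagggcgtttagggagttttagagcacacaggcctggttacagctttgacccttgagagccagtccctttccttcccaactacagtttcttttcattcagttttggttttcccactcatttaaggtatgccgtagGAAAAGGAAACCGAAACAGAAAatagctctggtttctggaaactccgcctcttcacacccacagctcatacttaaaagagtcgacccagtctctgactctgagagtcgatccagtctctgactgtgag
Tgtp1, chr11:48992197-48992496, minus strand: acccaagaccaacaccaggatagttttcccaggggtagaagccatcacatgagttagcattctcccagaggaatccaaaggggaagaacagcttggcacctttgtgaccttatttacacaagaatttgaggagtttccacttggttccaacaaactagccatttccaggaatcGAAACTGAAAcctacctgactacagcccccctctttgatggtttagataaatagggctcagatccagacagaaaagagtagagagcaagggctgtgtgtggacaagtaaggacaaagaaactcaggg
Isg15 holds 3 overlapping matches, the farthest starting 78 bases before the start site, and Tgtp1 holds 1, starting 77 bases before it. With both strands searched (the reverse is TTTCNNTTTC), 14 of 23 interferon-list genes read and matched to a promoter held the letters (60.9%), against 3.99% of 27025 genes with a promoter. Of the 9 list genes at least 2-fold higher and matched, 6 held the letters (66.7%), close to the 60.9% of all list genes read. Among genes at least 2-fold higher the share was 13.3% (15 of 113 matched) and among those at least 2-fold lower 5.56% (6 of 108). The 15 include the 6 list genes. The core letters of the antioxidant response element, TGACNNNGC or GCNNNGTCA, stood in 11.5% of the higher genes and 13% of the lower genes. They stood in 16.9% of the 4496 genes read and matched to a promoter, and in 14% of all genes with a promoter. A match of letters is a description of the window and not a binding site.

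MHC class II genes, which present peptides to helper T cells, were also higher. Of 6 genes read, each at 1 FPKM or more in both groups, 4 were at least 2-fold higher and 0 lower (median log2 ratio 1.27). H2-Eb1 was at 3.73 FPKM with Scr LNA and 12.3 FPKM with Mafg LNA. H2-Aa was at 3.51 and 11.0 FPKM. Cd74, the invariant chain, was at 2.03 and 5.49 FPKM. In the Scr LNA NCD livers H2-Eb1 was at 6.84 FPKM, between the HFD groups. MHC class I genes gave 0 of 14 higher and 1 lower, with 9 ratios above 0 and a median log2 ratio of 0.28. The lower gene, H2-Q7, was at 1.27 and 0.447 FPKM, in 1 isoform of a locus of 7 transcripts. B2m, the most abundant shown here, was at 710 and 522 FPKM.

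Toll-like receptors and other sensors of microbial products gave 4 of 12 higher and 0 lower. Tlr2 was at 0.539 FPKM with Scr LNA and 1.60 FPKM with Mafg LNA, and Tlr13, a sensor of bacterial ribosomal RNA, was at 0.499 and 1.54 FPKM. Of the 7 members at 1 FPKM or more in both groups, 0 were at least 2-fold apart. Among chemokines, cytokines and their receptors, 4 of 12 were higher and 0 lower, with Ccl2 at 0.482 and 1.59 FPKM, its receptor Ccr2 at 0.937 and 2.85 FPKM, and Ccl6 at 2.34 and 5.93 FPKM. Of the 8 members at 1 FPKM or more in both groups, 1 was at least 2-fold higher (Ccl6), since Ccl2, Ccr2 and Cxcl10 reached the minimum with Mafg LNA only.

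The acute-phase list was divided. Acute-phase proteins are secreted by hepatocytes under interleukin-6 and interleukin-1, and of 25 read 5 were at least 2-fold higher and 1 lower, with a median log2 ratio of −0.04. Saa1 was at 3.06 FPKM with Scr LNA and 14.4 FPKM with Mafg LNA, Saa3 at 1.67 and 6.99 FPKM, and Orm2 at 8.18 and 24.6 FPKM. The iron-binding lipocalin Lcn2 was at 0.706 and 2.83 FPKM. The fibrinogen genes Fga (358 and 281 FPKM), Fgb (226 and 180 FPKM) and Fgg (990 and 758 FPKM) and haptoglobin Hp (111 and 108 FPKM) were less than 2-fold apart. The metallothionein Mt1 was at 9.87 and 4.70 FPKM. Saa1 and Saa2 also stood higher with LincIRS2 LNA on NCD, at 29.4 and 39.2 FPKM, against 5.27 and 3.63 FPKM with Scr LNA on NCD. Saa1 and Saa2 are near-identical copies.

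**Figure D3:**
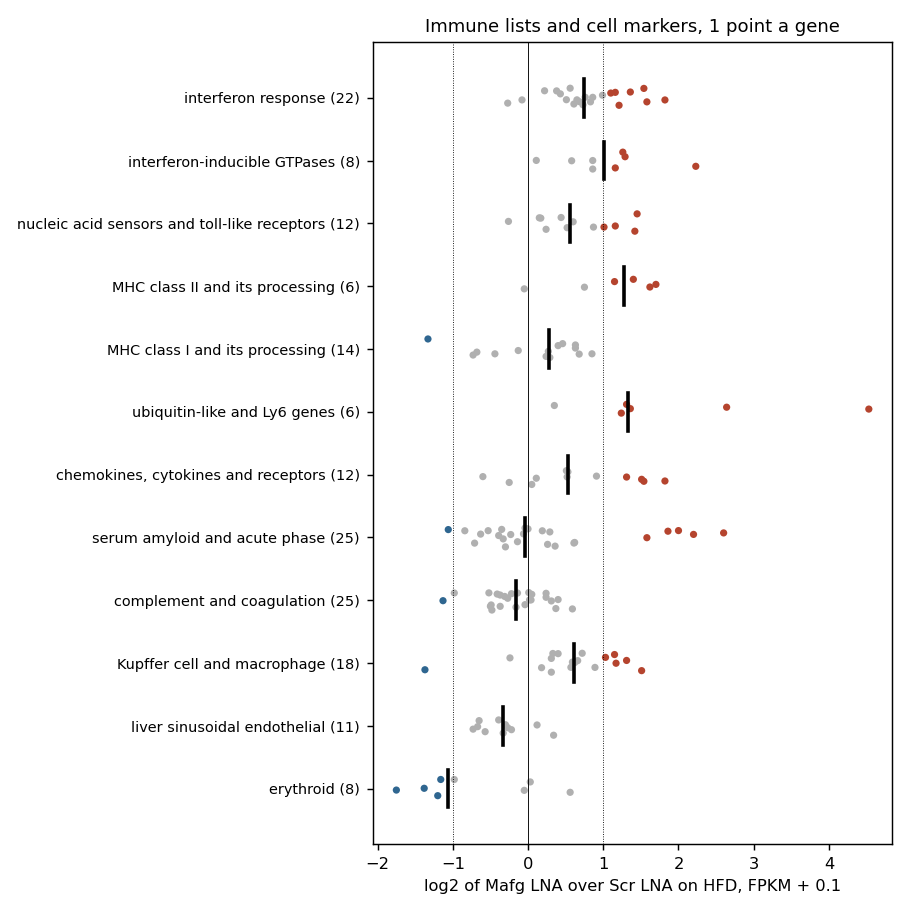
Log2 ratio of Mafg LNA over Scr LNA on HFD (x axis, FPKM + 0.1) for the genes read in 12 lists of immune genes and cell markers, 1 point a gene, with the median as a bar and the number read in brackets. Red and blue points are at least 2-fold higher or lower. The medians are 0.74 for interferon response, 1.27 for MHC class II and −1.07 for erythroid markers.

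Cell markers differed beside these genes. Of 18 markers of Kupffer cells and macrophages read out of 28, 5 were at least 2-fold higher and 1 lower, and their summed level was 69.6 FPKM with Scr LNA and 98.2 FPKM with Mafg LNA, against 101 FPKM with Scr LNA on NCD. Of the 14 at 1 FPKM or more in both HFD groups, 3 were higher and 0 lower. Of these 14, the Kupffer cell lectin Clec4f was at 3.91 and 4.46 FPKM and the scavenger receptor Marco at 1.22 and 2.86 FPKM. The 1 lower of the 18 was Cd163, at 1.07 and 0.351 FPKM, so it reached 1 FPKM with Scr LNA only. The 2 neutrophil markers read, S100a8 and S100a9, summed to 1.29 and 5.20 FPKM, against 14.0 FPKM with Scr LNA on NCD. Both reached 1 FPKM on HFD with Mafg LNA only, and Ly6g was at or near 0 in both HFD groups. The 2 platelet markers read out of 6, Ppbp and Pf4, summed to 1.59 and 5.90 FPKM, against 2.53 FPKM with Scr LNA on NCD. Pf4 reached 1 FPKM on HFD with Mafg LNA only, in 1 isoform of a locus of 3 transcripts. No marker of dendritic cells or of T, NK and B lymphocytes was read at 1 FPKM. Of 8 erythroid markers 4 were at least 2-fold lower and 0 higher, with Hbb-bs at 1086 and 473 FPKM and a summed level of 1962 and 912 FPKM. Of 11 sinusoidal endothelial markers 0 were at least 2-fold apart, with sums of 27.8 and 20.6 FPKM. The part of these cells in the immune differences was not tested. Of 10 hepatocyte markers read 1 was at least 2-fold higher (Serpina1a, of the near-identical copies) and 0 lower, with a median log2 ratio of −0.11. Of the 9 at 1 FPKM or more in both groups 0 were at least 2-fold apart. Their sum of 1821 and 1232 FPKM was led by Apoa1 (983 and 581 FPKM) and Apob (530 and 389 FPKM). Alb was listed at 0 in both groups and Ttr near 0, in single transcripts of loci with several.

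Several enzymes that clear drugs and steroids were lower with Mafg LNA. CAR and PXR are nuclear receptors that induce many of them in liver. In the list of Cyp2b genes and CAR or PXR targets 3 of 14 read were at least 2-fold lower and 0 higher (median log2 ratio −0.53), and among other drug-metabolising cytochromes 5 of 13 were lower and 0 higher (median −0.64). With 1 FPKM or more in both groups these became 1 of 12 and 3 of 11. Cyp2c29 was at 10.8 FPKM with Scr LNA and 4.17 FPKM with Mafg LNA, Cyp2c68 at 43.3 and 17.7 FPKM, and Cyp1a2 at 23.2 and 9.81 FPKM. Cyp2c genes are close copies of each other. Cyp3a11, a PXR target, was at 9.63 and 13.4 FPKM, and Cyp2e1 at 153 and 154 FPKM. Conjugating enzymes gave 5 of 17 lower and 1 higher, with the sulfotransferase Sult1a1 at 98.6 and 48.6 FPKM, the glucuronosyltransferase Ugt2a3 at 52.3 and 18.8 FPKM, and Gstp1 at 21.6 and 52.9 FPKM.

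Of 18 sex-biased and growth hormone regulated genes read, 6 were at least 2-fold lower and 1 higher (median log2 ratio −0.69), and of the 13 at 1 FPKM or more in both groups 3 were lower and 1 higher. The lower genes were not counted by the sex they are biased to. Cyp17a1, an androgen-synthesis enzyme, was at 5.99 FPKM with Scr LNA and 1.20 FPKM with Mafg LNA, at a locus of 10 transcripts. The female-biased Cyp2a4 was at 1.76 and 0.792 FPKM. Abcd2, a peroxisomal transporter, was at 10.1 and 4.76 FPKM. The 1 higher gene was Mup20, a male urinary pheromone protein, at 1170 and 2936 FPKM. Its relatives Mup3 (3345 and 1709 FPKM) and Mup21 (141 and 63.9 FPKM) were lower, and 2 of 9 major urinary protein genes read were at least 2-fold higher and 3 lower. Cyp2b9, Hao2 and Cyp2a4 were at 0.0935, 0.0245 and 0.0711 FPKM in the Scr LNA NCD livers, so Scr LNA HFD was the highest of the 4 groups for each.

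Bile acid synthesis, the pathway MAFG is known to repress, was mixed among the genes read. Of 13 genes read out of a list of 19, 2 were at least 2-fold lower and 1 higher (median log2 ratio −0.35). Cyp7a1, the rate-limiting enzyme of the classical pathway (chr4:6265612-6275633), was at 10.7 FPKM with Scr LNA and 3.09 FPKM with Mafg LNA, and its second feature at 5.79 and 1.38 FPKM. Slc27a5, which activates bile acids for conjugation, was at 130 and 62.6 FPKM, in 1 isoform of a locus of 12 transcripts. Hsd17b4, a peroxisomal side-chain enzyme, was at 1.03 and 4.35 FPKM, in 1 isoform of 14, but its second feature was at 1.16 and 1.28 FPKM, so the features of this gene differ. Cyp7b1 of the alternative pathway was at 27.4 and 34.9 FPKM, and its second feature at 3.86 and 8.89 FPKM. Cyp8b1, the sterol 12α-hydroxylase, was under the minimum at 0.218 and 0.262 FPKM, and so was Cyp27a1 at 0.0407 and 0.0459 FPKM. Acox2, Scp2 and Acot8 were also under it and Hsd3b7 was not matched, so the pathway was measured in part only. FXR itself (Nr1h4) was at 13.6 and 12.7 FPKM, and its target Nr0b2 at 1.79 and 2.50 FPKM.

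De novo lipogenesis makes fatty acids from carbohydrate. Of 17 of its genes read 3 were at least 2-fold lower and 0 higher (median log2 ratio −0.40). Scd1, the stearoyl-CoA desaturase, was at 1731 FPKM with Scr LNA and 635 FPKM with Mafg LNA, and its second feature at 427 and 149 FPKM. Thrsp was at 9.08 and 3.05 FPKM, and Fasn, the fatty acid synthase, at 3.29 and 1.56 FPKM. In the Scr LNA NCD livers Scd1 was at 2966 FPKM and Fasn at 5.73 FPKM, above both HFD groups. The regulator Srebf1 was at 2.16 and 1.16 FPKM. In cholesterol synthesis 1 of 9 genes was lower, Hmgcs1 at 1.55 and 0.644 FPKM, in 1 isoform of a locus of 14 transcripts. Of the 8 at 1 FPKM or more in both groups, 0 were at least 2-fold apart.

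Genes of lipid storage and uptake gave 2 of 16 higher and 2 lower. Lpl, lipoprotein lipase, was at 1.50 FPKM with Scr LNA and 4.76 FPKM with Mafg LNA, and Cfd, the adipocyte protease adipsin, at 0.816 and 3.51 FPKM. Hepatic lipase Lipc was at 17.3 and 6.23 FPKM and the VLDL receptor Vldlr at 1.48 and 0.599 FPKM. Among apolipoproteins and lipoprotein assembly genes, 2 of 14 were lower and 1 higher.

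Several metabolic lists held no gene at least 2-fold apart. These were fatty acid oxidation and ketogenesis (17 read of 21, median log2 ratio −0.08), PPARA targets (12 of 22, −0.01) and insulin and IGF signalling (24 of 31, −0.08). The urea cycle (12 of 20, −0.16) and nuclear receptors (19 of 31, −0.16) were the others. Genes under the minimum were not read, Pck1 and Insr among them, so these pathways were measured in part only. G6pc, glucose-6-phosphatase, was at 14.7 FPKM with Scr LNA and 15.3 FPKM with Mafg LNA, and Fgf21, a fasting hormone of liver, at 1.18 and 1.54 FPKM. Among 13 gluconeogenesis genes read out of 24, 2 were higher, Gpt (1.86 and 5.32 FPKM) and the glucagon receptor Gcgr (2.17 and 5.63 FPKM). Each was 1 isoform of a locus with 11 or more transcripts. Of 12 NRF2 and glutathione targets read out of 23, 1 was higher, Gsta1 at 1.47 and 4.22 FPKM. Nqo1 was at 1.41 and 1.39 FPKM, and its second feature at 1.36 and 0.773 FPKM. The targets Gclc, Gclm and Me1 were under the minimum in the transcript kept.

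**Figure D4:**
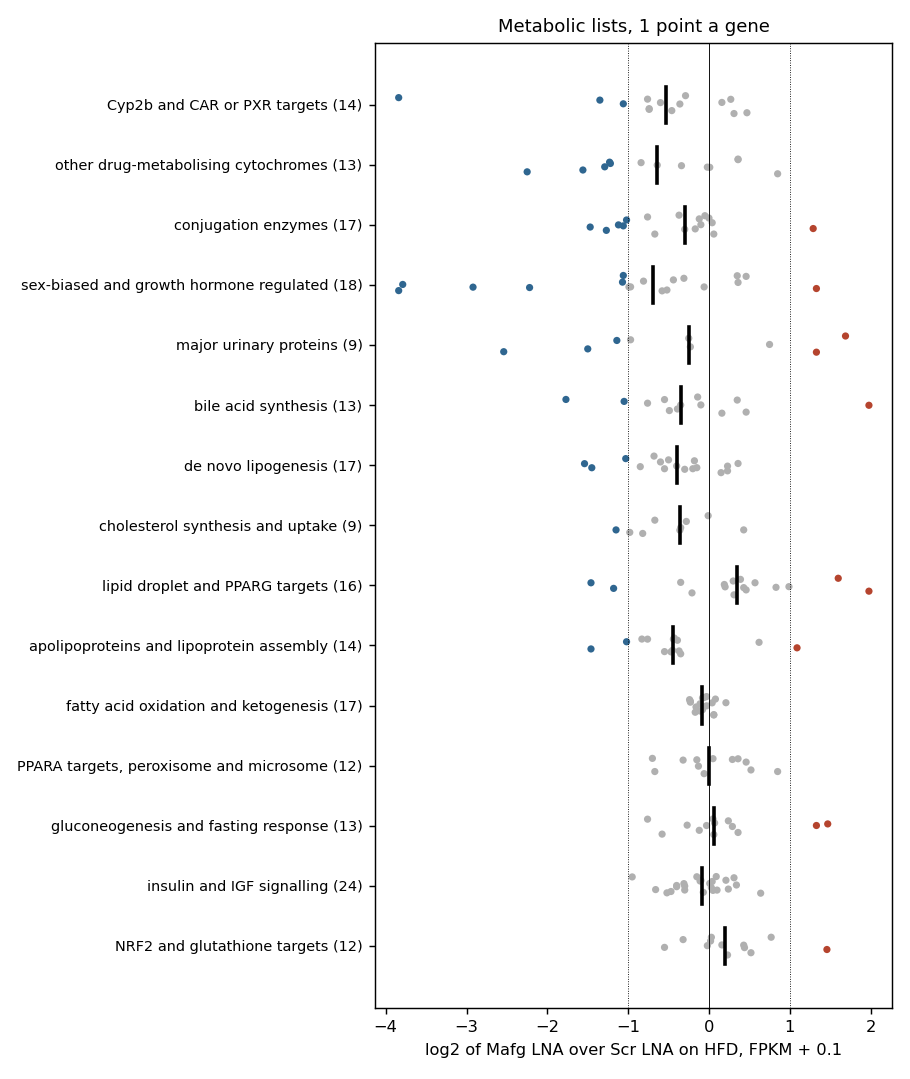
Log2 ratio of Mafg LNA over Scr LNA on HFD (x axis, FPKM + 0.1) for the genes read in 15 metabolic lists, drawn as for the immune lists. The medians are −0.64 for drug-metabolising cytochromes, −0.40 for de novo lipogenesis and −0.08 for fatty acid oxidation.

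**Figure D5:**
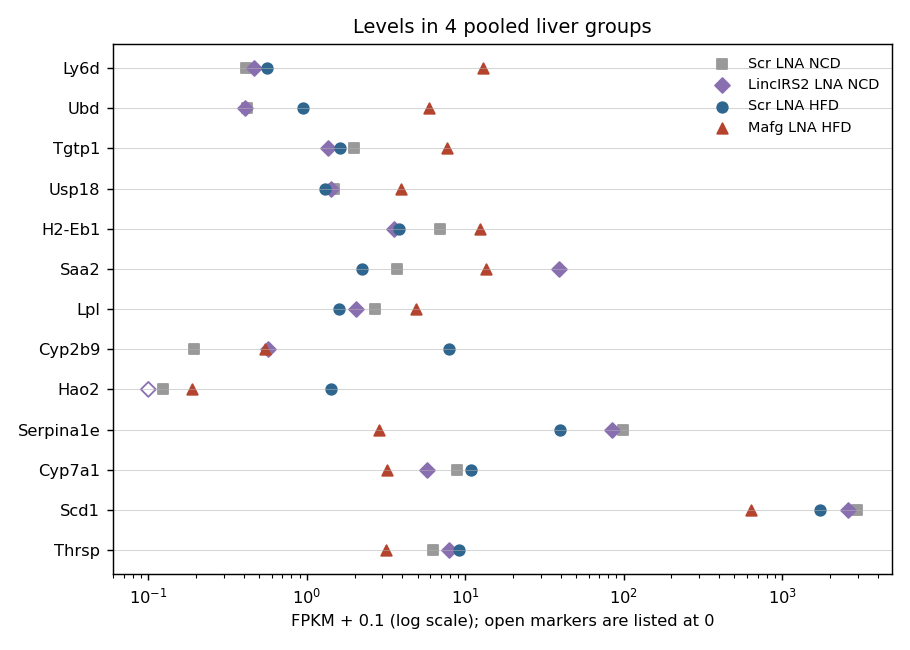
FPKM + 0.1 (log scale) of 13 genes in the 4 pooled groups analysed, with Scr LNA NCD as squares, LincIRS2 LNA NCD as diamonds, Scr LNA HFD as circles and Mafg LNA HFD as triangles, and open markers for a value of 0. Mafg LNA HFD is the highest group for Ly6d (12.9 FPKM) and Tgtp1 (7.53 FPKM) and the lowest for Scd1 (635 FPKM) and Serpina1e (2.77 FPKM).

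Long noncoding RNAs were compared with mRNAs because the study asks how Mafg acts on lncRNAs. The median log2 ratio of 512 lncRNA genes was 0.01 above that of 5469 mRNA genes, and 40% of lncRNA genes and 37.1% of mRNA genes had a ratio above 0. At least 2-fold higher were 3.91% of lncRNAs and 2.54% of mRNAs, and at least 2-fold lower 2.15% and 2.63%. Gm15611 (chr5:8998402-8999669) was at 2.30 FPKM with Scr LNA and 9.51 FPKM with Mafg LNA, and Gm45812 at 0.342 and 2.40 FPKM. Gm47713, Gm45349 and Gm15856 were under 0.1 FPKM with Scr LNA and between 1.01 and 1.15 FPKM with Mafg LNA. Of the lower lncRNAs, Gm31121 was at 1.96 and 0.174 FPKM, Gm12718 at 1.35 and 0.125 FPKM, and Gm35164 at 5.27 and 1.36 FPKM.

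The study's liver-enriched lncRNAs of diet-induced obesity did not stand on one side. Of 6 read out of 7, 1 was at least 2-fold higher and 1 lower, and the study chose them on other samples of obesity. Of the 4 at 1 FPKM or more in both groups, 0 were at least 2-fold apart. B930025P03Rik was at 0.573 FPKM with Scr LNA and 1.58 FPKM with Mafg LNA, with 1.47 FPKM in both NCD groups. 9030622O22Rik was at 4.46 and 0.754 FPKM. 9030616G12Rik was at 3.46 and 5.70 FPKM, and Gm10319 at 12.9 and 9.17 FPKM. Gm8883 was at 1.99 and 1.38 FPKM, and C730036E19Rik at 3.20 and 2.08 FPKM. 4833411C07Rik, which the study calls LincIRS2, was under the minimum at 0.213 FPKM with Scr LNA and 0.483 FPKM with Mafg LNA, with 0.558 FPKM in the Scr LNA NCD livers.

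Features without a gene were mostly loci of 1 transcript (93.4% of 437). The highest log2 ratio was at chr1:153913315-153913591, with 0.268 FPKM with Scr LNA and 4.83 FPKM with Mafg LNA. The lowest was at chr12:33445465-33445711, with 1.52 and 0.0877 FPKM. Both are loci of 1 transcript under 300 bases.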

How the data were processed

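Livers were compared as groups of 4, named from the sample labels. Per the labels and the study's methods, total RNA was depleted of rRNA and sequenced strand-specifically, rRNA reads were filtered with Bowtie2 2.2.9, reads were aligned to GRCm38 (mm10) with STAR 2.6.0c, and transcripts were assembled with Cufflinks 2.2.1 and annotated with Ensembl 90. The deposited FPKM values were made by the authors with Cuffdiff, as 1 estimate for all livers of a group. The tables also hold the authors' own fold changes, test statistics, p and q values, which were not used. The feature's own strand is not used here, so sense and antisense partners cannot be told apart.

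The tables were joined on the transcript number, and log2 ratios were taken with a pseudocount of 0.1 FPKM, a minimum of 1 FPKM in the higher group and a 2-fold threshold, in Python 3.11.15 with pandas 2.3.3. Counting was tested on simulated folds. Without replicates there was no test, and depth is unknown. The text names the 15 protein-coding genes and 5 lncRNA genes of largest change each way, members of 58 gene lists at least 2-fold apart, and genes a pathway turns on, of which a few are not reported here. The lists and genes were chosen with earlier results of these data known. The alternatives were other pseudocounts, filters, centring, Cuffdiff status, summed features and loci with 1 transcript. Further groups (8 livers) were not analysed here.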

Additional observations from a re-analysis of the deposited data

How the results depend on the processing

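No paired analysis was possible because each group is 1 pooled value, and for the same reason no replicate could be left out. Counts of genes at least 2-fold higher and lower (228 and 200) became 106 and 101 with a pseudocount of 1, 828 and 531 with no filter, 74 and 76 where both groups had to reach 1 FPKM, and 51 and 70 where the higher group had to reach 5 FPKM. Counts of features (370 and 326) became 177 and 171, 2695 and 1290, 106 and 113, and 82 and 114 under the same settings. Genes of the lists (56 higher and 45 lower) became 25 and 28, 103 and 58, 29 and 26, and 16 and 25. Of the 40 genes named for the largest changes, 7 were left at least 2-fold apart by the stricter filter on both groups and 10 by that on the higher group. Keeping only loci with 1 transcript, chosen after seeing the data, left 150 and 120 genes, 37 and 24 genes of the lists and 22 of the 40 named genes. These settings read fewer or more genes by construction, except the pseudocount, which shrinks low values. The lncRNA minus mRNA median stayed between −0.02 and 0.01. The interferon-response median ranged from 0.43 to 0.82, MHC class II from 0.75 to 1.40, drug-metabolising cytochromes from −1.03 to −0.34, and no named gene changed sign, nor did any list with a median past 0.5 under the settings that left it at least 5 genes (the neutrophil, platelet and cholangiocyte lists held 2 each and were not run).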

Other observations

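Replication histone genes were chosen after their values were seen, and some of them stood higher with Mafg LNA. Of 18 Hist genes read, 4 were at least 2-fold higher and 0 lower, 14 had a ratio above 0, and the median log2 ratio was 0.28, with single ratios from −0.31 to 1.85. Hist1h2bm, which encodes a histone H2B, was at 0.794 FPKM with Scr LNA and 3.12 FPKM with Mafg LNA, Hist1h2bn at 1.81 and 5.40 FPKM, and Hist1h1a, a linker histone, at 1.49 and 3.80 FPKM. The NCD groups were between 1.04 and 1.87 FPKM for these 3 genes. Among 5 cell cycle genes read, the proliferation marker Mki67 was at 0.637 and 1.82 FPKM and the topoisomerase Top2a at 0.352 and 1.10 FPKM, while Aurka was at 13.9 and 11.0 FPKM. Mki67 and Top2a reached 1 FPKM with Mafg LNA only, and of the 2 cell cycle genes at 1 FPKM or more in both groups 0 were at least 2-fold apart. Histone genes of one cluster are close copies, so reads may be split between them.

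Very short features carried most of the summed FPKM. Features without a gene under 100 bases, 38 of those read, held 90.1% of the summed FPKM of all features with Scr LNA and 93.4% with Mafg LNA.

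The immediate early transcription factor Egr1 was at 3.69 FPKM with Scr LNA and 0.803 FPKM with Mafg LNA on HFD, and at 0.709 FPKM with Scr LNA on NCD.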
